A study of Sus scrofa with 15 samples.

Results

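The testes of piglets fed cow's milk formula with added estradiol (M + E2) were compared with the testes of piglets fed sow milk (Sow). Libraries were chosen by diet alone, so that 6 of the 15 RNA-seq libraries of the series entered the comparison, 3 from M + E2 and 3 from Sow, and 15328 of 30476 genes in the count table passed the filter on low counts. Male piglets from Dutch Landrace Duroc sows suckled until postnatal day 2, were then housed singly and fed by bowl, and testes were collected on postnatal day 21. Sow piglets received commercially obtained sow milk. M + E2 piglets received a cow's milk formula (Similac Advance) with E2 put into the bowl at each feeding, and served as the positive control. The Milk group, which received the same formula without E2, is given beside the results (3 libraries), because M + E2 and Sow differed both in the formula and in E2, and these cannot be told apart between those groups. Each library came from RNA of frozen testis tissue and not of 1 cell type, so fewer cells of a type and less RNA per cell cannot be told apart either. In the labels the replicates are separate samples of a diet, and the column names left 1 Sow library without a number.

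The testis of a piglet at this age holds seminiferous cords of dividing Sertoli cells and gonocytes or early spermatogonia. Between the cords lie Leydig cells, which in the pig make large amounts of both androgens and estrogens. Leydig cells respond to luteinizing hormone by moving cholesterol into mitochondria, where STAR, CYP11A1 and the electron carrier FDX1 serve the first step of steroid synthesis, and later steps follow in the endoplasmic reticulum. E2 acts through the nuclear receptors ESR1 and ESR2, and it also lowers pituitary gonadotropins by negative feedback.

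The 6 libraries held between 6097552 and 9001617 reads on genes. Their scaling factors (TMM, a correction for library composition) lay between 0.762 and 0.957 in Sow and between 1.09 and 1.14 in M + E2, and those of the other 9 libraries between 0.918 and 1.08. The library named Sow 2, which the study's methods left out, had the lowest factor and stood apart in its ribosomal protein mRNAs, so the results are also given without it. The mean log2 CPM (read counts scaled to a common library size) of the ribosomal protein genes was 10.7 in Sow 2, 9.90 and 10.1 in the other Sow libraries and 8.69 to 9.30 in M + E2. It did not overlap between Sow and M + E2, but it varied as much within other diets (8.65 to 9.88 in Milk and 8.59 to 9.87 in Soy). In a fit with this level as a covariate, no member of the gene lists described here was called (edgeR). Medians with it are given below for some lists, and it moved the medians of other lists too. They went from 0.11 to -0.33 in glycolysis and glucose sensing, and from -0.60 to -0.25 in estrogen and xenobiotic clearance. Collagens went from 0.91 to 0.58, cell cycle genes from -0.34 to -0.03, and steroid hormone receptors and coregulators from 0.39 to 0.07. The defining genes of the labelled tissue were present in all 6 libraries, with 787 to 3888 CPM of STAR (Leydig cells) and 287 to 1274 CPM of AMH (Sertoli cells).

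A gene was called where the fold change was 2 or more at an adjusted p of 0.05 or less, by edgeR's quasi-likelihood test with Benjamini-Hochberg adjustment. In M + E2, 1339 genes were called higher than in Sow and 1428 lower, which is 18.1% of the genes tested (8.74% higher and 9.32% lower), and 48.8% of genes had an unadjusted p under 0.05. Without Sow 2, 225 genes were called higher and 556 lower, 5.0% of 15634 genes (1.44% higher and 3.56% lower, with 33.8% at an unadjusted p under 0.05). The share of calls that were higher was 48.4% with 3 Sow libraries and 28.8% without Sow 2. In both fits 771 genes were called in the same direction (223 or 1.45% higher and 548 or 3.58% lower, 5.03% of genes tested), and for 770 of them (5.02%) the libraries of the diets did not overlap. The M + E2 and Sow libraries did not overlap for 9130 genes (59.6%). M + E2 lay above Sow in 4863 of these (31.7%) and below it in 4267 (27.8%). The median log2 fold change over all genes tested was 0.07, and 0.01 without Sow 2.

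**Figure D1:**
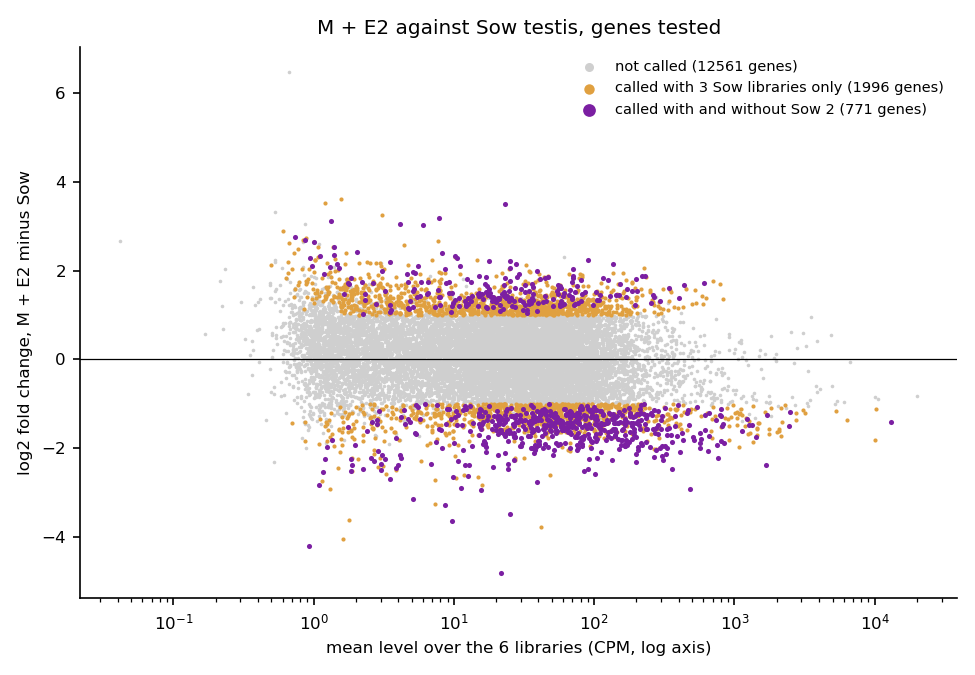
The log2 fold change of M + E2 against Sow (vertical axis) is plotted against the mean level over the 6 libraries in CPM (log axis), with 1 point for each of 15328 genes tested. Purple points are the 771 genes called with and without Sow 2, orange points were called with all 3 Sow libraries only, and grey points were not called. The purple points hold 548 genes that fell and 223 that rose.

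With the ribosomal protein level of each library as a covariate, 8 genes were called instead of 2767, and 0 without Sow 2 (edgeR, 1929 genes at an unadjusted p under 0.05, compared with 5284 without the covariate). No gene was called between M + E2 and Milk by the same edgeR test (0 of 15328, 2587 genes or 16.9% at an unadjusted p under 0.05, lowest adjusted p 0.0998). DESeq2's Wald test called 97 genes between M + E2 and Milk (0.633% of genes tested), with 58 higher (0.378%) and 39 lower (0.254%), and gave 18.3% of genes an unadjusted p under 0.05. Leaving out the library Milk 3 gave 1095 calls in the edgeR fit. The M + E2 libraries enter both the comparison with Sow and that with Milk, so the values against Milk are given beside those against Sow and are not independent of them.

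Leaving out Sow 2 together with each M + E2 library in turn left 6 genes called in each of the 3 fits, and they were the same 6 genes. LINGO1, GRIK5 and APLN rose, and PHYHIPL and 2 genes without a symbol fell. LINGO1, which encodes a neuronal membrane protein that restrains myelination (ENSSSCG00000001872, RefSeq Sscrofa11.1 chromosome 7, 57684591 to 57890121), had 2.04, 3.00 and 6.05 CPM in the Sow libraries and 48.0, 43.5 and 36.1 CPM in M + E2. Milk libraries lay between (13.5, 6.94 and 12.2 CPM), and no group overlapped another. Its log2 fold change against Sow was 3.51 ± 0.33 (SE, n = 3 and 3, edgeR adjusted p = 0.000655), and 3.17 ± 0.35 without Sow 2 (edgeR adjusted p = 0.00438). Against Milk the log2 fold change was 1.97, with an edgeR adjusted p of 0.0998 and a DESeq2 adjusted p of 1.13e-06.

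GRIK5, a kainate-type glutamate receptor subunit (chromosome 6, 49840671 to 49901656), had 6.72, 9.70 and 12.6 CPM in Sow, 18.9, 19.7 and 26.8 CPM in Milk and 40.9, 41.9 and 39.1 CPM in M + E2. The groups stood in that order without overlap, and the log2 fold change against Sow was 2.06 ± 0.23 (edgeR adjusted p = 0.00087, 0.00752 without Sow 2). APLN, the peptide ligand of the apelin receptor made by endothelium, had 35.5, 29.0 and 30.4 CPM in Sow and 75.9, 151 and 92.2 CPM in M + E2 (log2 fold change 1.75, edgeR adjusted p = 0.0027, 0.0188 without Sow 2). In APLN the Milk libraries (79.2, 77.0 and 88.5 CPM) overlapped M + E2, and the log2 fold change against Milk was 0.38 (edgeR adjusted p = 0.347).

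Of the genes that fell, PHYHIPL, which encodes a phytanoyl-CoA hydroxylase interacting protein-like protein (chromosome 14, 62525915 to 62630383), had 44.1, 25.2 and 55.4 CPM in Sow and 2.89, 0.639 and 0.958 CPM in M + E2. Milk libraries were as low as M + E2 (1.03, 3.10 and 1.99 CPM). The log2 fold change against Sow was -4.83 ± 0.52 (edgeR adjusted p = 0.00087, 0.00438 without Sow 2), and against Milk it was -0.51 (adjusted p = 0.62). The gene ENSSSCG00000048477, which has no symbol in the sources used here, was also highest in Sow, with 19.0, 10.3 and 24.6 CPM in Sow, 1.30, 1.53 and 1.38 CPM in M + E2 and 0.498 to 1.03 CPM in Milk, which lay below M + E2. ENSSSCG00000018071, also without a symbol, had 15.9, 18 and 13.5 CPM in Sow, 4.14, 3.47 and 1.74 CPM in Milk and 1.45, 1.41 and 1.92 CPM in M + E2. With the ribosomal protein level as a covariate, LINGO1, GRIK5, PHYHIPL and ENSSSCG00000018071 kept the call (edgeR adjusted p = 0.0279 for each).

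Other genes among the largest rises with a symbol and at least 5 CPM on average had varied roles. DCHS1, a giant protocadherin of planar cell polarity, had 18.7, 40.7 and 34.4 CPM in Sow and 127, 159 and 162 CPM in M + E2 (log2 fold change 2.25, edgeR adjusted p = 0.00645). In Milk it had 45.5, 67.5 and 128 CPM, the last within the range of M + E2. LGR5, a receptor for R-spondins that strengthens Wnt signaling, had 4.82, 5.39 and 8.61 CPM in Sow and 33.4, 27.2 and 26.9 CPM in M + E2 (log2 fold change 2.21, edgeR adjusted p = 0.00606). All LGR5 values in M + E2 lay above both the Sow and the Milk libraries (10.1, 5.95 and 19.8 CPM), and DESeq2 gave an adjusted p of 0.0399 against Milk. TVP23A, a Golgi membrane protein, rose from 1.61, 4.19 and 4.17 CPM in Sow to 23.8, 13.7 and 13.7 CPM, and the Milk libraries (3.99, 3.72 and 5.85 CPM) all lay under those of M + E2 (log2 fold change against Milk 1.91, adjusted p = 0.146 by edgeR and 7.42e-05 by DESeq2). KCNH1, a voltage-gated potassium channel, had 2.07 ± 0.07 CPM in Sow (SD, n = 3) and 8.99 ± 0.88 CPM in M + E2, without overlap. The protease inhibitor SPINK5, the calcium channel subunit CACNG4, SPACA6, the semaphorin receptor PLXNB3 and TNRC18 also rose, with log2 fold changes between 2.15 and 3.02. SPINK5, SPACA6 and TNRC18 overlapped between Milk and M + E2, while CACNG4 and PLXNB3 did not.

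The largest falls also held genes of varied roles. TFRC, the transferrin receptor by which cells import iron, had 1213, 611 and 717 CPM in Sow and 116, 122 and 94.8 CPM in M + E2. The Milk libraries had 322, 195 and 148 CPM, and the 3 groups did not overlap. The log2 fold change of TFRC against Sow was -2.93 ± 0.39 (edgeR adjusted p = 0.0049, 0.0209 without Sow 2). PRDX3, the mitochondrial peroxiredoxin that removes hydrogen peroxide, had 4071, 2192 and 2158 CPM in Sow and 488, 563 and 552 CPM in M + E2 (log2 fold change -2.39, edgeR adjusted p = 0.00606). The gluconeogenic enzyme FBP2, the electron transfer flavoprotein regulator ETFRF1, the ATP synthase component ATP5MD, the hypoxia-inducible mitochondrial protein HIGD1A, the mitochondrial carrier SLC25A16, the checkpoint protein RAD1, the endotoxin co-receptor LY96 and the histone gene HIST1H2BD also fell, with log2 fold changes between -2.36 and -2.77. FBP2, ATP5MD, HIGD1A and LY96 overlapped between Milk and M + E2, while ETFRF1, SLC25A16, RAD1 and HIST1H2BD did not. The copy of Y RNA listed as Y_RNA_4 (log2 fold change -3.49) is uncertain, since near-identical copies share reads.

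**Figure D2:**
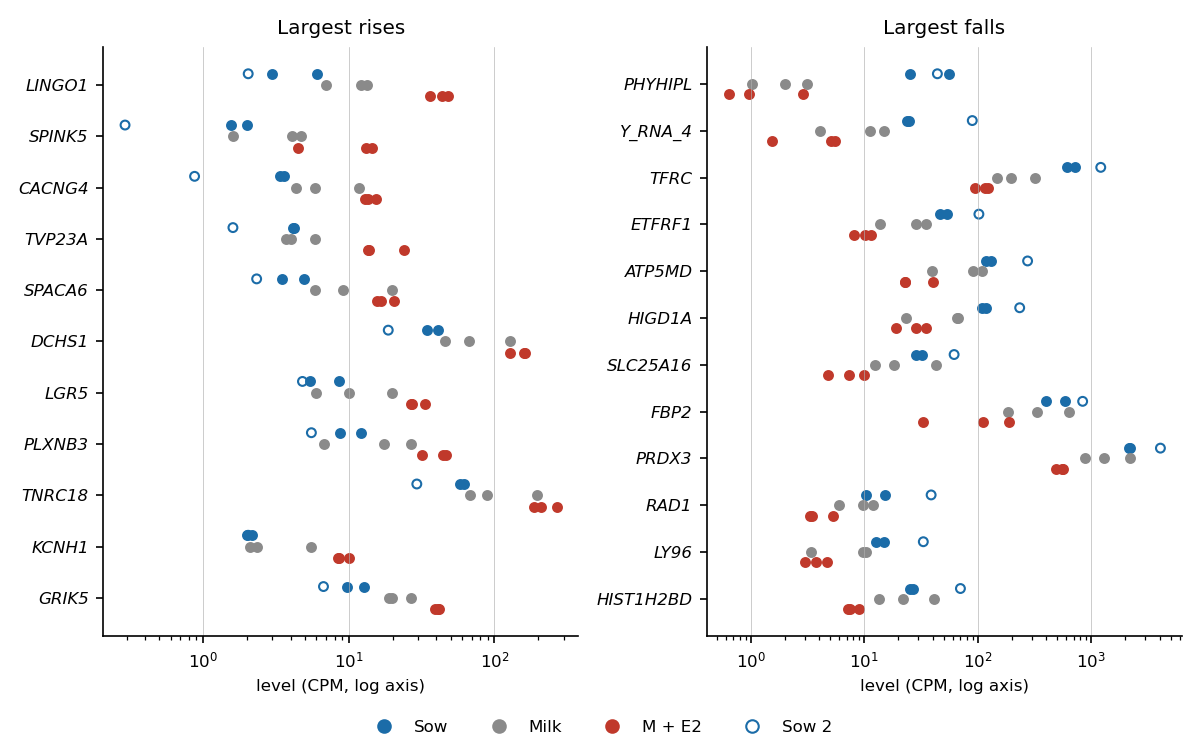
Levels in CPM (log axes) of 11 of the genes with the largest rise (left) and the 12 with the largest fall (right) in each Sow (blue, Sow 2 open), Milk (grey) and M + E2 (red) library. M + E2 and Sow points do not overlap, which the choice of genes fixed, and LINGO1 spans 2.04 to 6.05 CPM in Sow and 36.1 to 48.0 CPM in M + E2.

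In the list for Leydig cells and steroid synthesis, 5 of 19 genes tested were called lower in M + E2 and 0 higher. That is 26.3% called beside 18.1% of all genes tested, with a median log2 fold change of -0.20 (2 called and -0.34 without Sow 2). STAR, FDX1 and CYP11A1, which act in the mitochondrial cholesterol step, were among the 5, while FDXR, the reductase that feeds FDX1, and TSPO, a cholesterol-binding protein of the outer membrane, were not called (log2 fold change -0.07 and -0.50, edgeR adjusted p = 0.854 and 0.433). With the ribosomal protein level as a covariate, the list's median was -0.51. STAR, which delivers cholesterol to the inner mitochondrial membrane (chromosome 15, 48377597 to 48385398), had 3801, 3089 and 3888 CPM in Sow and 1324, 1702 and 787 CPM in M + E2. Every M + E2 library lay below every Sow library and below every Milk library (5308, 1783 and 3279 CPM). The log2 fold change was -1.50 ± 0.36 (edgeR adjusted p = 0.00971), and -1.53 ± 0.41 without Sow 2 (edgeR adjusted p = 0.0449). Against Milk it was -1.44, with an adjusted p of 0.184 by edgeR and 0.00992 by DESeq2.

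FDX1, the ferredoxin that passes electrons to CYP11A1, had 2372, 1388 and 1801 CPM in Sow and 732, 699 and 563 CPM in M + E2 (log2 fold change -1.48, edgeR adjusted p = 0.00733, 0.0414 without Sow 2). CYP11A1, the side-chain cleavage enzyme, had 3198, 2944 and 3075 CPM in Sow and 1603, 1721 and 1176 CPM in M + E2 (log2 fold change -1.03, edgeR adjusted p = 0.0208). CYP19A1, the aromatase that makes estrogens from androgens, had 5243, 4337 and 3818 CPM in Sow and 2200, 1815 and 1776 CPM in M + E2 (log2 fold change -1.21, edgeR adjusted p = 0.0124). In Milk, CYP11A1 had 2889, 1145 and 2816 CPM and CYP19A1 4552, 1797 and 3718 CPM, so both overlapped M + E2. Against Milk their log2 fold changes were -0.61 and -0.80 (edgeR adjusted p = 0.322 and 0.258). Pig aromatase has near-identical gene copies that the table does not list apart, so reads of CYP19A1 may come from more than that gene. CYB5A, the cytochrome b5 that favors the lyase step of CYP17A1, had a log2 fold change of -1.81 (edgeR adjusted p = 0.0113). Without Sow 2, CYP11A1, CYP19A1 and CYB5A kept their direction and lost the call (edgeR adjusted p = 0.066, 0.0575 and 0.0629).

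Other genes of the same cells did not pass the test. CYP17A1, which makes the androgen precursors, had 6029, 6784 and 7551 CPM in Sow and 6913, 6705 and 5993 CPM in M + E2, so the groups overlapped (log2 fold change -0.05 ± 0.33, edgeR adjusted p = 0.91). The luteinizing hormone receptor LHCGR had 129, 192 and 157 CPM in Sow and 188, 182 and 150 CPM in M + E2 (log2 fold change 0.12, edgeR adjusted p = 0.749). INSL3, the Leydig cell hormone of testis descent, had 6148, 6555 and 5303 CPM in Sow and 3943, 2973 and 4942 CPM in M + E2, which did not overlap (log2 fold change -0.60, edgeR adjusted p = 0.126). HSD17B3, which completes testosterone, had a log2 fold change of -0.46 (edgeR adjusted p = 0.251).

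In the Sertoli cell list, 4 of 20 genes tested were called higher and 1 lower (25% called beside 18.1% of all genes tested, median log2 fold change 0.39). Without Sow 2 only GDNF of these 20 was called, where 5.0% of all genes were. AMH, the Sertoli cell hormone that makes the Müllerian ducts regress (chromosome 2, 76415564 to 76418315), had 287, 410 and 696 CPM in Sow, 493, 349 and 658 CPM in Milk and 1126, 1274 and 1194 CPM in M + E2. All M + E2 libraries lay above all others of these 3 groups. The log2 fold change was 1.37 ± 0.31 against Sow (edgeR adjusted p = 0.00826, 0.054 without Sow 2) and 1.26 against Milk (adjusted p = 0.179 by edgeR, 0.0138 by DESeq2). GDNF, the growth factor with which Sertoli cells maintain spermatogonial stem cells, was low, with 1.02, 1.68 and 0.942 CPM in Sow and 3.18, 2.94 and 4.15 CPM in M + E2 (log2 fold change 1.48, edgeR adjusted p = 0.00733, 0.0465 without Sow 2). INHBA, the activin A subunit, and the transcription factor SOX8 were also called higher.

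KITLG, the Sertoli cell ligand of the germ cell receptor KIT, fell, from 155, 112 and 96.9 CPM in Sow to 51.3, 59.9 and 69.4 CPM in M + E2 (log2 fold change -1.01, edgeR adjusted p = 0.00679). KIT itself had 108, 137 and 133 CPM in Sow and 187, 227 and 240 CPM in M + E2 (log2 fold change 0.79, edgeR adjusted p = 0.0279, under the fold required). FSHR, the receptor for follicle-stimulating hormone, had 46.4, 58.9 and 60.3 CPM in Sow and 114, 99.9 and 104 CPM in M + E2, and the Sertoli cell determinant SOX9 had 60.0, 77.8 and 81.7 CPM and 139, 146 and 121 CPM. Their log2 fold changes of 0.94 and 0.89 (edgeR adjusted p = 0.0315 and 0.0425) were also under the fold required. In FSHR, SOX9 and KIT, the M + E2 libraries lay above every Sow and Milk library.

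No germ cell gene was called by edgeR (0 of 13 tested, 6 at an unadjusted p under 0.05, 0 by DESeq2). An edgeR adjusted p of 0.05 or less was reached by 3 of them, KIT, FGFR3 and RET, under the fold required. A positive log2 fold change was found in 10 of the 13, and the median was 0.64 (0.43 without Sow 2). DDX4, the germ cell RNA helicase, had 10.4, 5.15 and 11.4 CPM in Sow and 5.20, 4.86 and 7.14 CPM in M + E2 (log2 fold change -0.64, edgeR adjusted p = 0.199). UCHL1 and MAEL were the others with a negative log2 fold change (-0.65 and -0.61, edgeR adjusted p = 0.118 and 0.217). The summed level of the germ cell list was 249 to 296 CPM in Sow, 207 to 322 CPM in Milk and 388 to 439 CPM in M + E2. KIT alone held 108 to 137 CPM of this sum in Sow and 187 to 240 CPM in M + E2. The summed level of the Sertoli cell list was 2877 to 3232 CPM in Sow and 4280 to 4420 CPM in M + E2, and that of the Leydig cell list 38742 to 53777 CPM and 22791 to 24479 CPM. Neither sum overlapped between Sow and M + E2, as was the case for 59.6% of single genes tested. In Milk the sums were 1983 to 3531 CPM and 22382 to 43922 CPM. AMH alone held 287 to 696 CPM of the Sertoli cell sum in Sow and 1126 to 1274 CPM in M + E2. The mean log2 level, in which each tested gene counts alike, was 5.62 in Sow and 5.97 in M + E2 for the Sertoli cell list. For the Leydig cell list it was 8.69 in Sow and 8.24 in M + E2. The part of cell proportions in the results was not tested.

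**Figure D3:**
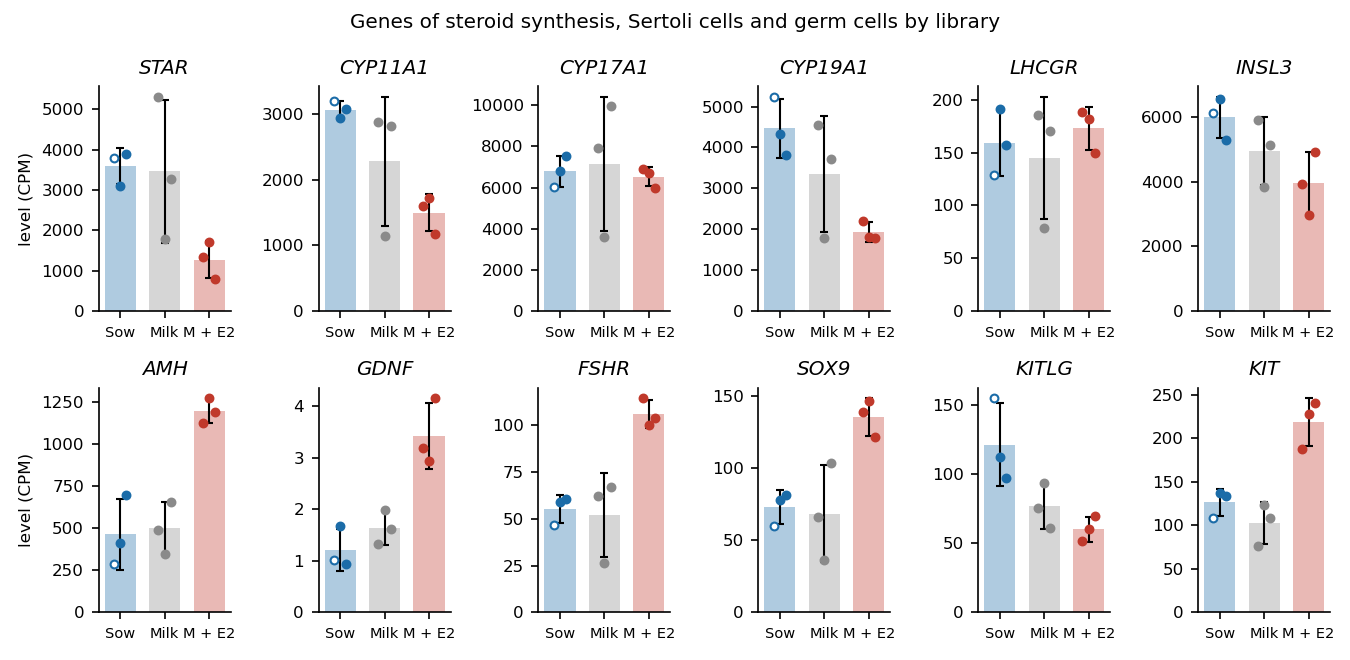
Levels in CPM of 12 genes of steroid synthesis, Sertoli cells and germ cells in the Sow, Milk and M + E2 libraries. Bars are means, error bars SD (n = 3) and points libraries, with Sow 2 open. STAR is lowest in M + E2 (787 to 1702 CPM), CYP17A1 overlaps between groups, and AMH is highest in M + E2 (1126 to 1274 CPM).

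In a list of steroid hormone receptors, estrogen-related orphan receptors and receptor coregulators (among the last NCOA1, NCOA2, NCOA3 and NRIP1), no gene was called by edgeR (0 of 14 tested, 6 at an unadjusted p under 0.05, 0 by DESeq2). NR3C2, NCOA1, NCOA2 and NCOA3 had an edgeR adjusted p of 0.05 or less, under the fold required. ESR1 had 11.7, 16.9 and 15.5 CPM in Sow and 16.0, 15.1 and 21.3 CPM in M + E2, and ESR2 had 1.17, 0.719 and 0.942 CPM and 0.867, 1.15 and 1.60 CPM. The progesterone receptor gene PGR, an estrogen target in the uterus, had 4.23, 3.00 and 3.09 CPM in Sow and 2.17, 2.56 and 2.77 CPM in M + E2 (log2 fold change -0.45, edgeR adjusted p = 0.362).

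Of 20 tested genes known to respond to estrogen in other tissues, 3 were called higher and 0 lower. That is 15.0% called, under the 18.1% of all genes tested. GREB1, a cofactor of ESR1, had 14, 11.6 and 11.6 CPM in Sow, 24.1, 17.5 and 20.2 CPM in Milk and 19.7, 19.4 and 39.7 CPM in M + E2. The Milk and M + E2 libraries overlapped, and the log2 fold change was 1.09 against Sow (edgeR adjusted p = 0.0444, 0.117 without Sow 2) and 0.36 against Milk (edgeR adjusted p = 0.612). CELSR2, an adhesion receptor, had a log2 fold change of 1.94 (edgeR adjusted p = 0.0108), and the transglutaminase TGM2 1.15 (edgeR adjusted p = 0.0182). None of the 3 was called without Sow 2.

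Of 28 tested genes that clear estrogens and xenobiotics, 8 were called lower and 0 higher (6 called without Sow 2). That is 28.6% called beside 18.1% of all genes tested, with a median log2 fold change of -0.60. GSTO1, an omega-class glutathione transferase, had 737, 391 and 362 CPM in Sow and 105, 122 and 101 CPM in M + E2, below every Milk library (504, 290 and 226 CPM). Its log2 fold change was -2.18 against Sow (edgeR adjusted p = 0.0065, 0.0374 without Sow 2) and -1.64 against Milk (DESeq2 adjusted p = 0.0131). HSD17B4, the peroxisomal enzyme that oxidizes E2 and shortens branched fatty acids, had 2881, 1984 and 2331 CPM in Sow and 1092, 999 and 905 CPM in M + E2 (log2 fold change -1.26, edgeR adjusted p = 0.00684). CYP1A1 was under the filter with 3 Sow libraries, at 0 to 0.584 CPM in Sow and 1.02 to 1.59 CPM in M + E2. The estrogen sulfotransferase SULT1E1 had 0.404 to 0.958 CPM in Sow and 0.256 to 3.83 CPM in M + E2, and did not pass the test (edgeR adjusted p = 0.569).

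Nuclear genes for the respiratory chain and ATP synthase made up the broadest group that fell. Of 67 such genes tested, 48 were called lower (71.6%) and all 67 had a negative log2 fold change, with a median of -1.45. Without Sow 2, 30 were called lower and the median was -1.19. In the lists by complex, 25 of 33 genes of complex I, 1 of 4 of complex II, 5 of 7 of complex III, 8 of 11 of complex IV and 9 of 12 of complex V were called. The complex IV list also held CYCS (cytochrome c, not a subunit of that complex) and COX7A2L, and the complex V list DMAC2L. These were among the genes called. In complex I, NDUFB11 had 177, 100 and 115 CPM in Sow and 35.7, 35.9 and 29.8 CPM in M + E2 (log2 fold change -1.95, edgeR adjusted p = 0.0049). COX7B of complex IV had 506, 225 and 243 CPM in Sow and 57.7, 68.4 and 95.7 CPM in M + E2 (log2 fold change -2.13, edgeR adjusted p = 0.00766), and ATP5MC3 of complex V 650, 390 and 476 CPM and 116, 133 and 141 CPM (log2 fold change -1.96, edgeR adjusted p = 0.00606). These small genes have processed copies in mammalian genomes that may share reads.

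The mean log2 level of the 67 genes was 7.63, 6.89 and 7.06 in the Sow libraries, 6.93, 6.71 and 6.08 in Milk and 5.76, 6.0 and 5.99 in M + E2. All M + E2 libraries were thus the lowest of these groups. In the soy formula group the level was 6.32, 5.90 and 6.93, which overlapped M + E2. With genistein added to the milk formula it was 6.27, 6.43 and 6.14, which did not. Against Milk the median log2 fold change of the 67 genes was -0.76, with 0 called by edgeR (42 at an unadjusted p under 0.05) and 1 by DESeq2. With the ribosomal protein level as a covariate, the medians of complexes I to V against Sow were between -0.39 and -0.61.

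Transcripts of the mitochondrial genome were lower too. Of 13 mitochondrial genes tested, 5 were called lower (ND2, ND3, COX2, COX3 and ATP8), and all 13 had a negative log2 fold change, with a median of -0.98 (-0.97 with 3 called without Sow 2, and -0.96 with the ribosomal protein covariate). ATP8 had 353, 327 and 272 CPM in Sow and 114, 78.1 and 126 CPM in M + E2 (log2 fold change -1.58, edgeR adjusted p = 0.00718). In the citrate cycle, 6 of 22 genes were called lower, with Sow 2 or without it, among them IDH1 (log2 fold change -1.25, edgeR adjusted p = 0.00675). In fatty acid oxidation, 5 of 22 genes were called lower, among them the medium-chain dehydrogenase ACADM (log2 fold change -1.45, edgeR adjusted p = 0.00606), and 1, the transcription factor PPARA, was called higher. The 5 that fell were called without Sow 2 as well. The shares called were 38.5% for genes of the mitochondrial genome and 27.3% each for citrate cycle and fatty acid oxidation genes. Of all genes tested, 18.1% were called.

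In sterol synthesis, which supplies the cholesterol used for steroids, 6 of 25 genes were called lower and 0 higher (4 called without Sow 2). That is 24% called beside 18.1% of all genes tested, with a median log2 fold change of -0.73. MSMO1, the sterol methyl oxidase, had 1317, 777 and 590 CPM in Sow, 1250, 655 and 498 CPM in Milk and 232, 298 and 192 CPM in M + E2. M + E2 lay below every library of the other 2 groups, with a log2 fold change of -1.90 against Sow (edgeR adjusted p = 0.00738, 0.0428 without Sow 2) and -1.74 against Milk (adjusted p = 0.179 by edgeR, 0.00806 by DESeq2).

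**Figure D4:**
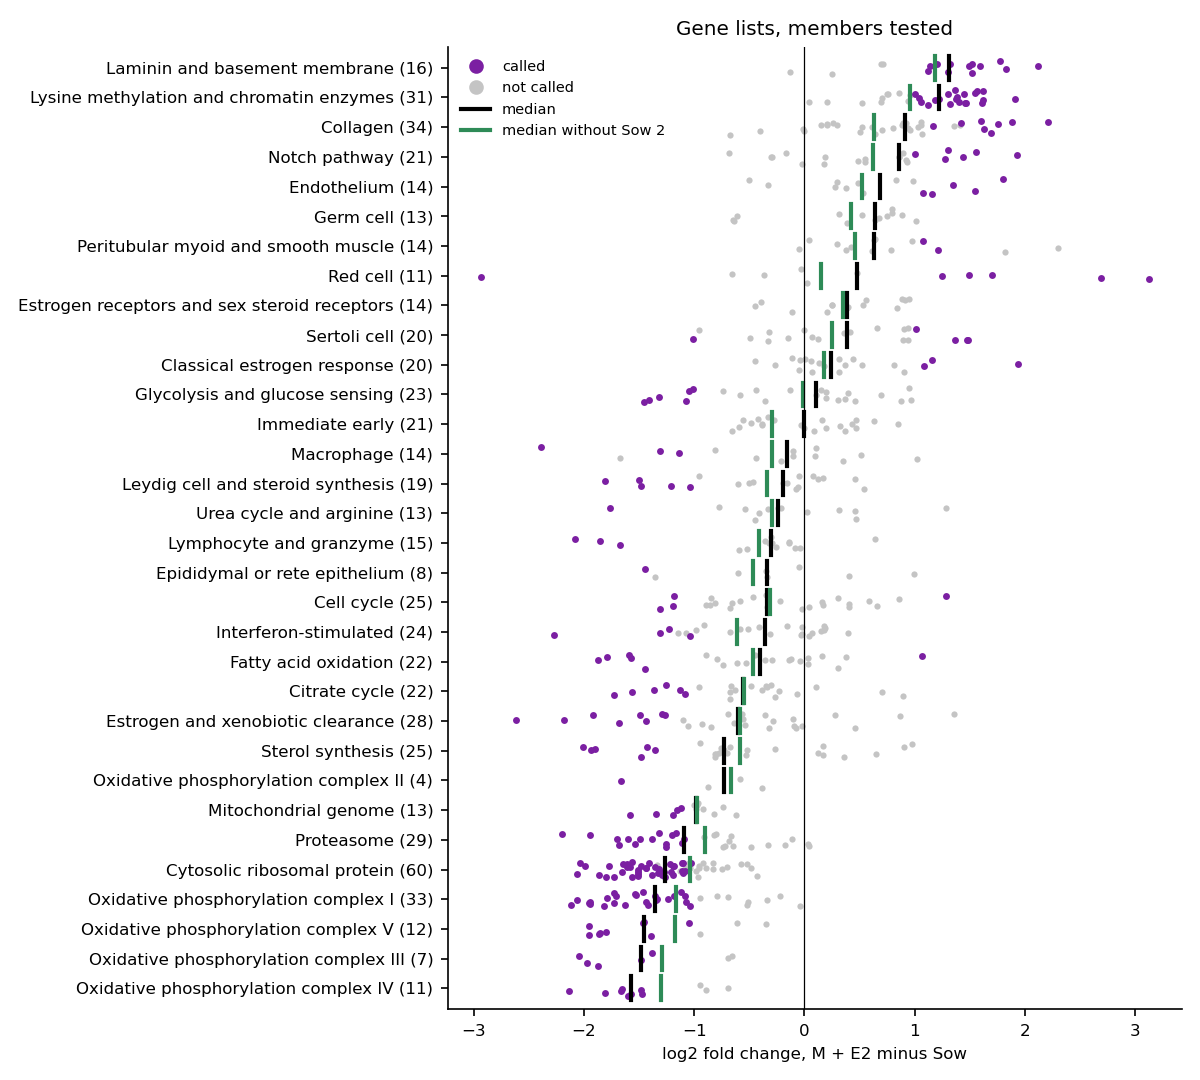
The log2 fold change of M + E2 against Sow (horizontal axis) of the tested members of 32 gene lists, ordered by median, with the number of members tested in parentheses. Purple points were called and grey points were not, black lines are medians and green lines medians without Sow 2. Medians run from -1.57 (complex IV) to 1.31 (laminins and basement membrane).

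Ribosomal protein genes, which were also the covariate above, had 40 of 60 members called lower (66.7%) and all 60 with a negative log2 fold change, with a median of -1.27. Without Sow 2, 4 were called and the median was -1.04, and with the covariate, which is the mean of these genes, it was -0.03. RPS29 had 1406, 791 and 856 CPM in Sow, 637, 644 and 279 CPM in Milk and 236, 282 and 401 CPM in M + E2 (log2 fold change -1.73, edgeR adjusted p = 0.00821). In the proteasome, which degrades ubiquitin-tagged proteins, 15 of 29 genes were called lower (51.7%, median log2 fold change -1.09, 9 called without Sow 2, median -0.37 with the ribosomal protein covariate). PSMA2 of the core particle had 680, 310 and 316 CPM in Sow and 74.6, 99.3 and 111 CPM in M + E2 (log2 fold change -2.20, edgeR adjusted p = 0.00718). Against Milk the medians were -0.54 for ribosomal protein genes and -0.60 for the proteasome, with 0 called by edgeR in each.

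Genes for chromatin enzymes moved the other way. Of 31 tested, 21 were called higher (67.7%) and all 31 had a positive log2 fold change, with a median of 1.22. Without Sow 2, 3 were called and the median was 0.96. KMT2B, a histone H3 lysine methyltransferase, had 20.6, 29.7 and 33.2 CPM in Sow, 29.9, 32.9 and 74.5 CPM in Milk and 93.4, 85.6 and 77.7 CPM in M + E2 (log2 fold change 1.62, edgeR adjusted p = 0.00738). SMARCC2, a core subunit of the SWI/SNF remodeling complex, had 53.6, 86.1 and 88.4 CPM in Sow and 224, 213 and 192 CPM in M + E2 (log2 fold change 1.46, edgeR adjusted p = 0.00669). With the ribosomal protein level as a covariate the median of the list was 0.35. Its mean log2 level was 5.75, 5.82 and 6.73 in Milk and 6.81, 6.81 and 6.65 in M + E2, which overlapped. Against Milk the median log2 fold change was 0.56, with 0 called by edgeR.

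**Figure D5:**
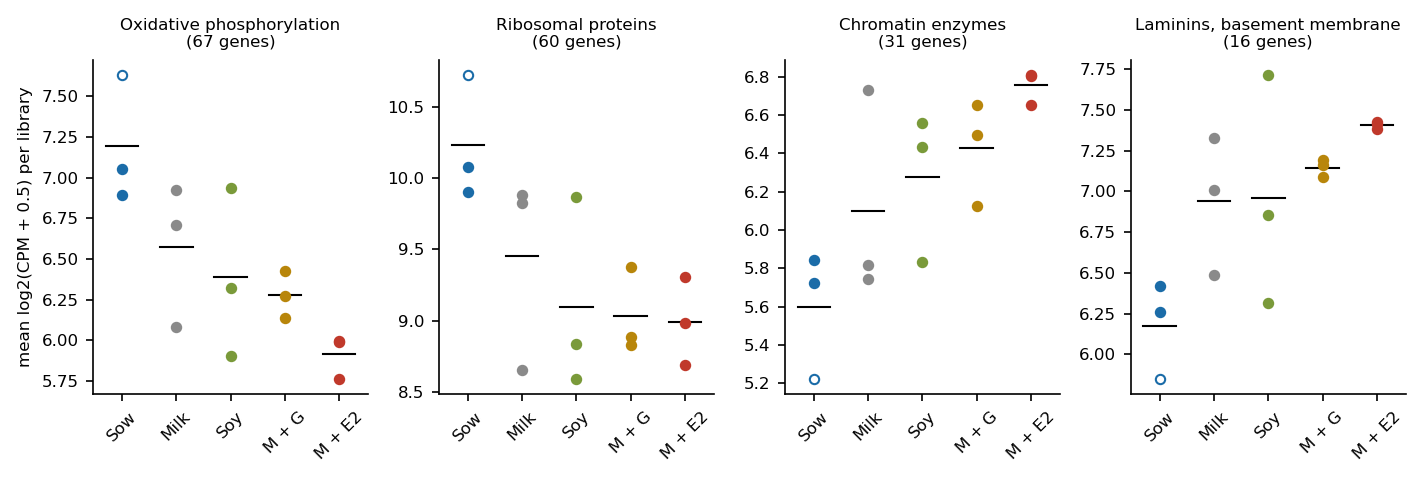
The mean log2(CPM + 0.5) of 4 gene groups in each of the 15 libraries by diet, with lines at the group means and Sow 2 open. M + E2 libraries are below all Sow libraries in oxidative phosphorylation (5.76 to 6.0 against 6.89 to 7.63) and ribosomal proteins, and above them in chromatin enzymes and laminins.

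Basement membrane genes, which encode the sheet that surrounds the seminiferous cords and vessels, were called higher for 12 of 16 members tested (75%, median log2 fold change 1.31). Without Sow 2, 3 were called and the median was 1.19, and with the ribosomal protein covariate the median was 0.47. LAMC1, the laminin gamma chain common to most laminins, had 94.2, 161 and 135 CPM in Sow, 178, 301 and 356 CPM in Milk and 372 ± 19.9 CPM in M + E2 (SD, n = 3), whose lowest library overlapped Milk (log2 fold change 1.52, edgeR adjusted p = 0.00774, 0.0511 without Sow 2). NID2, which links laminin to collagen, had 141, 184 and 181 CPM in Sow and 422, 432 and 409 CPM in M + E2 (log2 fold change 1.32, edgeR adjusted p = 0.00684, 0.0436 without Sow 2). Of 34 collagen genes, 8 were called higher and 0 lower (23.5% called beside 18.1% of all genes tested, 4 higher without Sow 2). Among them was COL18A1, the source of endostatin, with 60.2, 125 and 111 CPM in Sow and 361, 378 and 355 CPM in M + E2. Against Milk the medians were 0.50 for basement membrane genes and -0.15 for collagens.

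In the Notch pathway, 6 of 21 genes were called higher (28.6% called beside 18.1% of all genes tested, 1 called without Sow 2). The median log2 fold change was 0.86, or 0.32 with the ribosomal protein covariate. HEY2, a target gene and repressor, had 5.99, 6.35 and 9.28 CPM in Sow, 12.7, 13.9 and 12.6 CPM in Milk and 22.4, 16.4 and 19.8 CPM in M + E2 (log2 fold change 1.43, edgeR adjusted p = 0.0049, 0.0343 without Sow 2). Of 14 endothelial genes, 5 were called higher (35.7% called, and 1, ROBO4, without Sow 2). The median log2 fold change was 0.68, or 0.40 with the ribosomal protein covariate. ROBO4 had 21.6, 35.1 and 26.1 CPM in Sow, 54.2, 72.8 and 83.6 CPM in Milk and 78.5, 106 and 58.6 CPM in M + E2, and the endothelial cadherin CDH5 36.1, 67.9 and 52.9 CPM, 90.3, 145 and 149 CPM and 119, 159 and 122 CPM. Both overlapped between Milk and M + E2. The summed level of the endothelial list was 472 to 666 CPM in Sow, 836 to 1684 CPM in Milk and 913 to 1200 CPM in M + E2. Of 14 genes of peritubular and smooth muscle, 2 were called higher (MYLK and SMTN, neither without Sow 2), which is 14.3% beside 18.1% of all genes tested. The list's summed level was 1126 to 1764 CPM in Sow, 2430 to 6449 CPM in Milk and 1868 to 2316 CPM in M + E2.

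The shares of immune genes called were near the 18.1% of all genes tested, at 21.4% for macrophage, 20% for lymphocyte and 16.7% for interferon-stimulated genes. Of 14 macrophage genes, 3 were called lower (AIF1, MSR1 and LY96), and of 15 lymphocyte genes, 3 were called lower (GZMH, KLRK1 and JCHAIN), with 0 higher in each. Without Sow 2, LY96 and JCHAIN kept the call. The median log2 fold changes were -0.16 and -0.31, and with the ribosomal protein covariate 0.04 and -0.08. JCHAIN, the joining chain of secreted antibodies, had 58.9, 31.7 and 31.3 CPM in Sow, 16.0, 11.9 and 8.22 CPM in Milk and 12.1, 11.4 and 14.6 CPM in M + E2 (log2 fold change -1.67, edgeR adjusted p = 0.00681). Of 24 interferon-stimulated genes, 4 were called lower (2 without Sow 2). IFI6 had 208, 195 and 267 CPM in Sow, 55.7, 159 and 33.4 CPM in Milk and 60.8, 38.2 and 40.1 CPM in M + E2 (log2 fold change -2.27, edgeR adjusted p = 0.00721, 0.0374 without Sow 2). The summed level of the macrophage list was 477 to 596 CPM in Sow and 383 to 517 CPM in M + E2, and that of the lymphocyte list 222 to 368 CPM and 156 to 204 CPM. LYZ of the former and CD3G of the latter had 0 reads in all 6 libraries.

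In the list for glycolysis and glucose sensing, 6 of 23 genes were called, all lower (26.1% beside 18.1% of all genes tested). The median log2 fold change was 0.11. TXNIP, a glucose-responsive inhibitor of glucose uptake, had 536, 786 and 864 CPM in Sow, 377, 393 and 263 CPM in Milk and 388, 289 and 364 CPM in M + E2 (log2 fold change -1.07, edgeR adjusted p = 0.00724). PDK4, which spares glucose by inhibiting pyruvate dehydrogenase, had 74.3, 141 and 143 CPM in Sow, 84.0, 54.3 and 67.2 CPM in Milk and 59.1, 59.7 and 54.8 CPM in M + E2 (log2 fold change -1.05, edgeR adjusted p = 0.0144). The highest Milk library of PDK4 lay above Sow 2. ARRDC3 and the glycolytic genes PGK1, PGAM1 and LDHA were the others called, and TXNIP, PDK4 and ARRDC3 were called without Sow 2. ARRDC4 and the kinases PDK1, PDK2 and PDK3 were not called, with log2 fold changes of -0.36, -0.59, 0.31 and 0.88. In the urea cycle list, 1 of 13 genes was called, ARG1 (7.69%, lower, log2 fold change -1.76, edgeR adjusted p = 0.0126), and 0 without Sow 2 (ARG1 at an edgeR adjusted p of 0.0613).

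The share of genes called differed between the other lists. Of 25 cell cycle genes, CENPF was called higher, and CDK1, PCNA and NUF2 lower (16% called beside 18.1% of all genes tested), with 0 called without Sow 2. Of 21 immediate early genes, 0 were called by edgeR (3 at an unadjusted p under 0.05, 0 by DESeq2). JUNB had an edgeR adjusted p of 0.0223, under the fold required. Of 8 tested epithelial genes of the epididymis and rete testis, 1 was called, KRT8, with 200, 162 and 186 CPM in Sow and 64.7, 85.9 and 50.7 CPM in M + E2 (log2 fold change -1.44, edgeR adjusted p = 0.0152, and not called without Sow 2, at 0.0575). The median log2 fold change of these 8 genes was -0.34, and 0.47 with the ribosomal protein covariate. Of 11 red cell genes, 6 were called (54.5% beside 18.1% of all genes tested). Of these, 5 were called higher, among them HBZ, SLC4A1, AHSP and GATA1, and TFRC was called lower. Without Sow 2, SLC4A1, GATA1 and TFRC were called. The summed level of the list, most of it TFRC in the Sow libraries and hemoglobin HBB in M + E2, was 1130 to 1813 CPM in Sow and 386 to 758 CPM in M + E2. The red cell genes that rose were scarce, as GATA1 shows, with 0.146, 0.240 and 0.269 CPM in Sow and 1.16, 2.43 and 0.958 CPM in M + E2.

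Genes called lower spanned less of the genome than the genes tested, and genes called higher spanned more. Over the 12234 tested genes with a symbol and a RefSeq Sscrofa11.1 span, the median span was 32.3 kb. It was 48.2 kb for genes called higher and 18.9 kb for genes called lower (36.2 kb and 18.9 kb for those called with and without Sow 2). Among the 3059 genes with the shortest spans, 132 were called higher and 415 lower, and among the 3059 with the longest spans, 364 were called higher and 89 lower. The part of gene length in the results was not tested.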

How the data were processed

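Testis mRNA libraries were sequenced by the authors as single-end reads, which were mapped with CLC Genomics Workbench to a curated pig gene library, and reads left over were mapped to Ensembl's pig assembly 11.1. The deposited values are raw read counts per gene, with no normalization. Counts of all 15 libraries were fitted together, 1 mean per diet, by the quasi-likelihood test of edgeR 4.0.16 (R 4.3.3, limma 3.58.1) after filterByExpr (minimum count 10) and TMM scaling. CPM are TMM-scaled. Each comparison was repeated without Sow 2. Alternatives were other library sets, scalings and filters, a replicate block, DESeq2 1.42.0 and the exact test. Steps were tested on simulated data. Named genes were the 12 largest rises and falls among genes called in both fits with no overlap, a mean of 5 CPM and a symbol, preset testis and estrogen genes, and up to 4 called genes per list. Members and the 33 lists were chosen with earlier results of these data known. The list of nuclear retained RNAs had 0 members in the table, and HSD3B1, CYP19A2, CYP19A3 and DAZL were not analysed here. Of the genes the rule named, 2 are not reported here. Symbols were in the table or the gene name table (17244 genes, 798 from the latter). P-values of the main fit rest on the spread between libraries within diets, estimated over all 15 libraries and not over the 6 compared alone. Depth was 6097552 to 9001617 reads in the 6 libraries, and 3 reads were worth under 1 CPM in each.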

Additional observations from a re-analysis of the deposited data

How the results depend on the processing

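The number of genes called between M + E2 and Sow (2767) stayed within 1.5 times under DESeq2 size factors (2785), DESeq2's Wald test (2858), the edgeR exact test (2980), the 6 libraries alone (2940), no filter (2829) and at least 10 reads in all 6 libraries (2414). It was 5776 by adjusted p alone. Leaving out 1 library gave 781 (Sow 2) to 3324 (Sow 3), with 1813 without M + E2 2 as the only other count more than 1.5 times away. Alternatives chosen after seeing the data gave 6 genes when Sow 2 and any M + E2 library were left out together, 1846 in the 5 libraries alone, 1887 (exact test) and 1329 (DESeq2) without Sow 2, and 8 or, without Sow 2, 0 with the ribosomal protein covariate (edgeR, 2340 and 1929 genes at an unadjusted p under 0.05). With a replicate block over the numbered libraries 3238 genes were called, and 3004 in those libraries without it. Same-numbered libraries did not deviate together (r = -0.14 and -0.18 for M + E2 and Sow), so the numbers were not read as pairs.

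Between M + E2 and Milk, 0 genes were called by edgeR. Leaving out 1 library gave 0 to 1095, the latter without Milk 3. The replicate block gave 5 genes (CTSL, HPD, ENSSSCG00000018076 and ENSSSCG00000018096 lower, LINGO1 higher). DESeq2 gave 97, and 122 without Sow 2. Same-numbered libraries did not deviate together here either (r = -0.06, -0.09 and -0.34).

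Of 131 named genes called in the main comparison, 96 kept the call without Sow 2, 111 to 127 without another library, 6 without Sow 2 and an M + E2 library, and 7 with the ribosomal protein covariate, and in none of these fits did a called gene change direction. Many of these genes were chosen because they were called without Sow 2. Those that kept the call in all fits that left out libraries, or were called with the covariate, were added to them. The choice of genes thus fixed these counts in part. Over all genes, 771 of the 2767 called were also called without Sow 2. Depth limits the red cell genes, where GATA1 and SLC4A1 had at most 3 reads in each Sow library.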
